A study of Mus musculus with 16 samples.

Results

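The comparison of RAW264.7 cells that received both stimuli with cells that received neither uses 8 of the 16 arrays of the study, 4 of each kind, chosen by their titles. RAW264.7 is a mouse macrophage-like cell line. In the group called Th2_IL33, cells grew for 48 h with interleukin-4 and interleukin-13 at 10 ng/ml, called the Th2 cytokines, and then received murine recombinant interleukin-33 (IL-33) at 20 ng/ml for 4 h. In the group called Media, cells of the same line were grown in the same serum-containing medium without these cytokines and without IL-33. The remaining 8 arrays hold the single stimuli, Th2 (the Th2 cytokines and no IL-33) and Media_IL33 (IL-33 alone), with 4 arrays each. Every group has 1 array from each of 4 independent experiments, numbered 1 to 4. A transformed line in culture models neither the tissue nor the other cells from which these cytokines come in allergy, and all the RNA is bulk RNA, in which fewer cells of a type and less RNA per cell cannot be told apart.

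MicroRNAs (miRNAs) are short RNAs that guide a repressor complex to messenger RNAs, mainly through the seed, bases 2 to 8 of the mature strand. IL-33 is released by damaged barrier cells and signals through ST2, a receptor of the IL-1 receptor family, and MyD88 to NF-kB, whose known miRNA targets in macrophages include miR-155, miR-146a and miR-21. IL-4 and IL-13 signal through STAT6 and drive the alternative activation of macrophages, for which the mannose receptor gene Mrc1, host of miR-511, is a marker. The comparison asks what the macrophage miRNA profile looks like when both signals have been given, and whether it equals what the 2 single responses add up to.

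The sequences that carry the comparison are shown here as RefSeq (GRCm38.p6) gives the mature strand, with the seed in capitals, to show which members share a seed and which lie close together in the genome. Of the 24 miRNAs that differed, 21 had an entry there. The first set is known from NF-kB responses, and miR-146a-5p and miR-146b-5p share their seed and differ at 2 positions downstream of it. In these data miR-146b-5p and miR-21a-5p differed from Media more with the Th2 cytokines alone (log2 differences 1.47 and 0.80). With IL-33 alone their differences were 0.95 and 0.59.
miR-155-5p: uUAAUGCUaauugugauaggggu
miR-146a-5p: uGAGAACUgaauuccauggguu
miR-146b-5p: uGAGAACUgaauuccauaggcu
miR-21a-3p: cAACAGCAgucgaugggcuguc
miR-21a-5p: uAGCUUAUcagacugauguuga
The second set rose with growth in Th2 cytokines. miR-511-3p (chr2:14261051-14261072, plus strand) lies within Mrc1, and the miR-362 and miR-500 strands lie within 4348 bases of each other (chrX:7237695-7242042, minus strand) inside Clcn5, a chloride channel gene, with 3 different seeds. miR-99a-5p (chr16:77598940-77598961) and miR-100-5p (chr9:41531437-41531458) lie on different chromosomes, share their seed and differ at 1 position.
miR-511-3p: aAUGUGUAgcaaaagacaggau
miR-362-5p: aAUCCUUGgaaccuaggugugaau
miR-362-3p: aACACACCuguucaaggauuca
miR-500-3p: aAUGCACCugggcaaggguuca
miR-99a-5p: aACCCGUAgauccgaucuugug
miR-100-5p: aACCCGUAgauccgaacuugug
The third set is the miR-183 cluster, 3771 bases of chromosome 6 (chr6:30165962-30169732, minus strand) within the noncoding gene Mirc35hg, the only source of calls in the downward direction. miR-96-5p and miR-182-5p share bases 2 to 7.
miR-96-5p: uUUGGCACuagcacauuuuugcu
miR-182-5p: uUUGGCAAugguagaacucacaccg
miR-183-5p: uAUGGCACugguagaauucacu

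Signals are given as relative signal, the background-subtracted intensity of a miRNA divided by the 75th percentile of its array, with a floor of 0.0353 below which values were set to that number. Of 1247 miRNAs on the array, 231 had a detection call on every array of 1 or more groups and were tested with limma, with adjusted p values over these 231 and a threshold of 0.05. The arrays detected 206 to 256 miRNAs each, and their number limits the precision. Of the macrophage markers, miR-223-3p, miR-142a-3p and miR-21a-5p were well above background on all 16 arrays and miR-142a-5p on 15. Their summed relative signal was 23.5 to 31.8 on Th2_IL33 arrays and 8.22 to 17.5 on Media arrays, and 2 of the 4, miR-223-3p and miR-21a-5p, are among the miRNAs that rose. Most of that sum was miR-21a-5p on each of these arrays. The markers miR-142a-3p and miR-142a-5p did not pass the threshold (log2 differences -0.13 and -0.18). Of 23 miRNAs that mark liver, muscle, neurons, red cells, epithelium and other cells, 0 were well above background on any array, and their summed relative signal without the floor was 0.0655 to 0.140 on Th2_IL33 arrays and 0.131 to 0.172 on Media arrays. All 4 Th2_IL33 arrays were hybridised on slide 2, against 1 of 4 Media arrays (Media 1), and slide and stimulus are therefore only partly separable. Media 3 (median correlation with its own group 0.874), Media 1 (0.920) and Th2_IL33 2 (0.945) stood apart, and results without these 3 are given beside those with them. Media 2, with the same correlation as Media 1 (0.920) and the fewest detected miRNAs (206), was kept in both. The correlation alone therefore does not define the 3 arrays left out.

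Both stimuli together raised 22 of 231 miRNAs and lowered 2 against Media (9.52% and 0.866% of those tested, 10.4% together). The increases ran from 0.71 to 2.81 on the log2 scale. By lists chosen with earlier results known, the 22 held 5 miRNAs of NF-kB and Toll-like receptor responses and 9 of alternative activation. The rest were 4 strands of the Clcn5 cluster and 4 others. The 2 decreases were miR-96-5p and miR-182-5p. For 23 of the 24 the Th2_IL33 and Media arrays did not overlap, as was so for 34 of the 231 (14.7%). Non-overlap fixes the same direction in 4 of 4 experiments, which all 24 showed. The 24 were chosen on these same arrays, so neither count is separate support. With the experiment number as a block, 42 passed (29 higher and 13 lower, 12.6% and 5.63%, 18.2% together), among them these 24. Without Media 1, Media 3 and Th2_IL33 2, 24 passed (21 higher and 3 lower) and 23 of the calls remained, without miR-125b-5p (limma adjusted p = 0.0606). Without Media 1 alone 40 passed (36 higher and 4 lower), all 24 among them. With normexp background correction, which adds an offset of 50 intensity units to every signal, all 22 increases passed with smaller log2 differences (0.27 to 1.11). The direction split depends on the scaling, with 23 higher and 15 lower after quantile normalization and 19 higher and 10 lower in the authors' deposited table. Quantile normalization also brought the median log2 difference over all tested miRNAs to 0, against 0.13 here.

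Of 10 tested miRNAs of inflammatory signalling, 5 rose in cells given both stimuli and 0 fell (9.52% of all tested miRNAs rose). The lists were chosen with earlier results of these data known, so their shares are no independent enrichment. miR-155-5p, which represses the signalling inhibitors SHIP1 and SOCS1 and is made from Mir155hg, had relative signals of 0.187, 0.156, 0.116 and 0.146 on Th2_IL33 arrays 1 to 4, 0.0353, 0.0375, 0.0397 and 0.0545 on Th2 arrays, 0.0798, 0.0850, 0.0952 and 0.105 on Media_IL33 arrays, and 0.0353, 0.0364, 0.0353 and 0.0581 on Media arrays. Every Th2_IL33 array lay above every other array, the Th2 and Media arrays lay at or near the floor, and only Media 4 of those 8 was well above background. The joint difference was 1.89 ± 0.19 on the log2 scale (SE, limma adjusted p = 3.23e-06). With the 3 Media arrays that were not well above background set to the dimmest signal that counted as such (the background bound), it was 2.62-fold.

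The 2 strands of miR-21a, which lies within Vmp1, both rose. miR-21a-3p, the strand usually discarded, was at 0.222, 0.257, 0.195 and 0.197 on Th2_IL33 arrays and at 0.0602, 0.0460, 0.0353 and 0.0832 on Media arrays (log2 difference 2.02 ± 0.24, adjusted p = 1.89e-05; 3.42-fold with the 2 dim Media arrays at the background bound). miR-21a-5p, the guide strand that represses the tumour suppressor Pdcd4, was at 21.8, 24.3, 21.7 and 30.4 on Th2_IL33 arrays, at 18.0, 16.2, 16 and 24.7 on Th2 arrays, at 13.5, 15.1, 16.4 and 19.8 on Media_IL33 arrays, and at 12.1, 9.52, 6.86 and 16.1 on Media arrays. Experiment 4 held the highest miR-21a-5p value in every group, Media 3 the lowest of all, and the Th2_IL33 and Media arrays did not overlap. The joint rise of miR-21a-5p was 2.29-fold (1.20 ± 0.23, adjusted p = 0.0015). Given alone, the Th2 cytokines raised it by 0.80 ± 0.23 (adjusted p = 0.0386), and IL-33 gave 0.59 ± 0.23 (adjusted p = 0.480).

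miR-146a-5p and miR-146b-5p, which repress the adaptor proteins TRAF6 and IRAK1 downstream of the IL-1 receptor family, rose together while their single responses differed. miR-146a-5p was at 0.531, 0.646, 0.488 and 0.468 on Th2_IL33 arrays and at 0.254, 0.261, 0.188 and 0.220 on Media arrays, without overlap (2.31-fold, log2 difference 1.21 ± 0.16, adjusted p = 4.54e-05). The Th2 cytokines alone gave 0.31, not past the threshold (adjusted p = 0.255), and IL-33 alone raised it by 1.08. miR-146b-5p was at 0.190, 0.229, 0.158 and 0.153 on Th2_IL33 arrays and at 0.0588, 0.0450, 0.0353 and 0.0591 on Media arrays, also without overlap (1.89 ± 0.22, adjusted p = 1.01e-05; 3.13-fold with 2 dim Media arrays at the bound). Here both single differences passed, with 1.47 for the Th2 cytokines and 0.95 for IL-33.

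miR-222-5p passed the threshold in the joint comparison and in neither single one. It comes from the same hairpin as miR-222-3p, a repressor of the p27 brake on cell division. Its relative signal was 0.203, 0.223, 0.169 and 0.188 on Th2_IL33 arrays, 0.129, 0.131, 0.107 and 0.0803 on Th2 arrays, 0.131, 0.128, 0.152 and 0.163 on Media_IL33 arrays, and 0.107, 0.0967, 0.0631 and 0.106 on Media arrays. All 4 Th2_IL33 arrays lay above the other 12. The joint difference was 1.09 ± 0.19 (2.13-fold, adjusted p = 0.000598), against 0.27 for the Th2 cytokines (adjusted p = 0.435) and 0.65 for IL-33 (0.179). A call in the joint comparison and none in the single ones is no test of their difference, and the sum of 0.92 ± 0.33 differed from the joint value by 0.18 (95% interval -0.39 to 0.75). The 3p arms miR-221-3p (0.33, adjusted p = 0.282) and miR-222-3p (0.26, 0.329) did not pass, nor did miR-125a-5p (0.44, 0.123), let-7e-5p (0.28), miR-99b-5p (0.22), miR-212-3p (0.29) and miR-125a-3p (0.12). The median over the 10 tested inflammatory miRNAs was 0.82, against 0.13 over all tested, and 9 of the 19 listed were not tested.

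**Figure D1:**
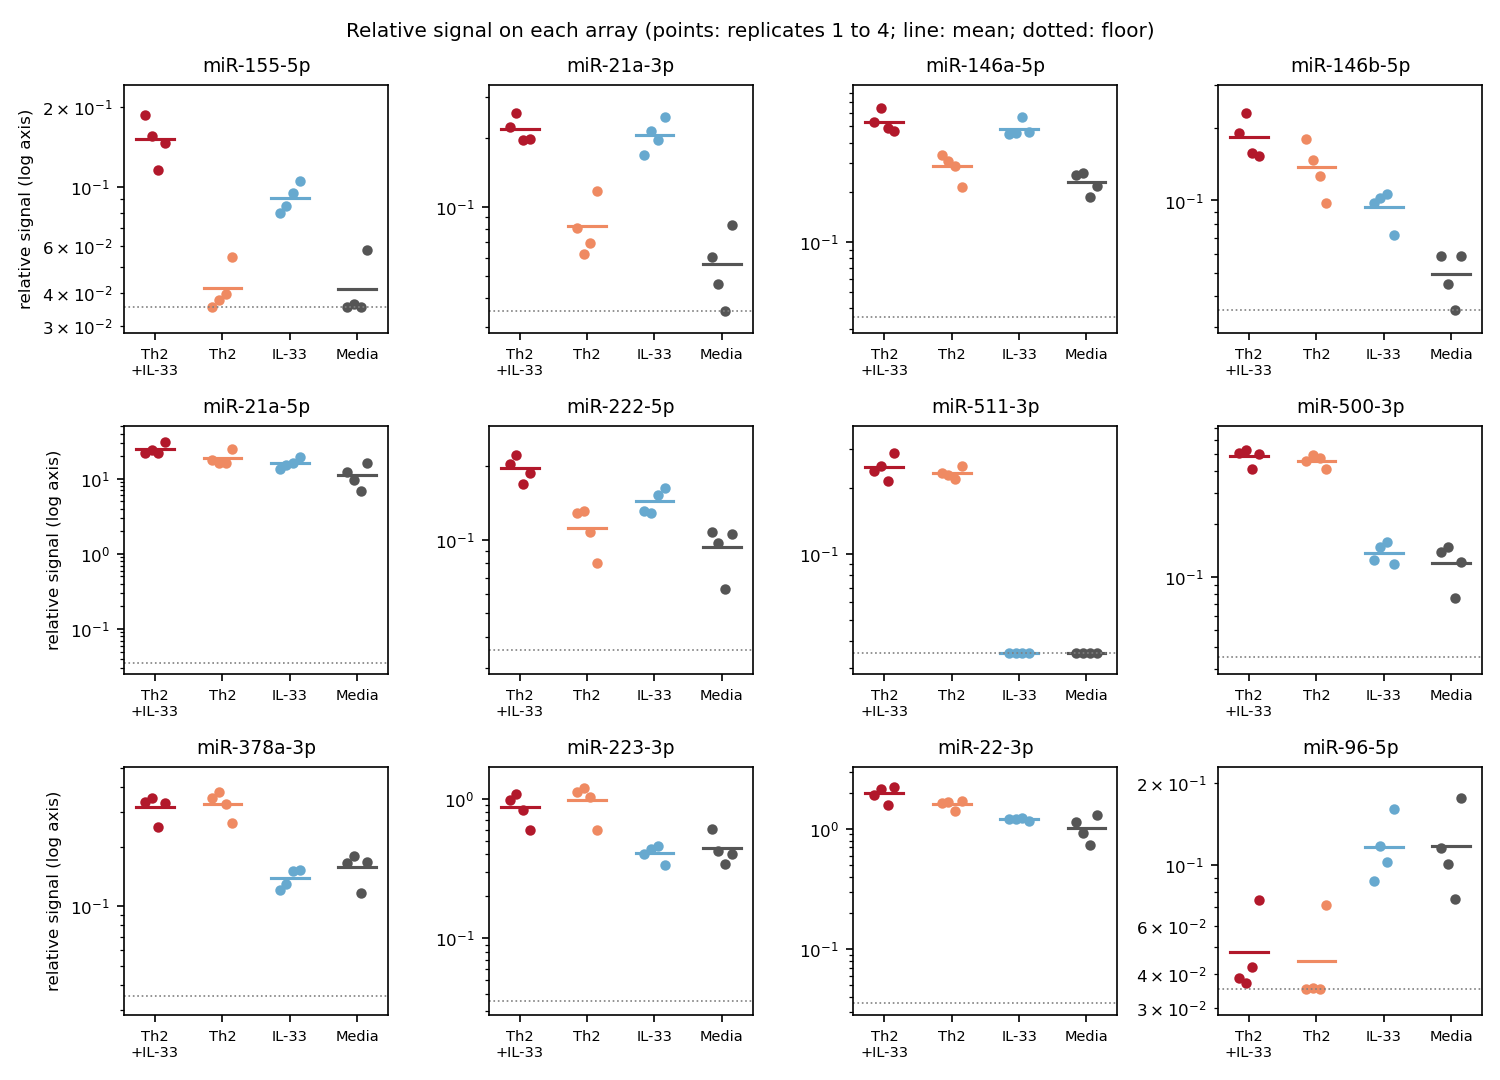
Relative signal (log axis) of 12 miRNAs on each array, with the 4 replicates of Th2_IL33, Th2, Media_IL33 and Media as points, the group mean as a line and the floor of 0.0353 dotted. The Th2_IL33 arrays of miR-155-5p and miR-222-5p lie above all other arrays, those of miR-511-3p and miR-500-3p lie beside the Th2 arrays, and those of miR-96-5p lie below every Media array.

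Of 11 tested miRNAs of alternative activation, 9 rose in cells given both stimuli and 0 fell, against 9.52% of all tested miRNAs that rose (median 1.07, against 0.13). This list, too, was chosen with earlier results of these data known, so its share is no independent enrichment. miR-511-3p was at 0.240, 0.251, 0.216 and 0.289 on Th2_IL33 arrays, at 0.235, 0.229, 0.220 and 0.251 on Th2 arrays, and at the floor of 0.0353 on all 4 Media_IL33 and all 4 Media arrays. The arrays with Th2 cytokines overlapped each other and lay far above the arrays without. The joint rise was at least 4.72-fold (log2 difference from the floor 2.81 ± 0.10, adjusted p = 5.23e-12), where the arrays at the floor add no spread to the SE.

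Of 6 tested strands of the Clcn5 cluster, 4 rose with both stimuli and 0 fell (median 1.95). Of all tested miRNAs 9.52% rose and 0.866% fell (median 0.13). miR-500-3p was at 0.504, 0.526, 0.408 and 0.498 on Th2_IL33 arrays and at 0.138, 0.148, 0.0758 and 0.122 on Media arrays, well above background on all 8 and without overlap (4.11-fold, log2 difference 2.04 ± 0.18, adjusted p = 7.24e-07). miR-362-3p rose by 2.13 ± 0.18 (3.58-fold with 3 dim Media arrays at the bound) and miR-532-5p by 1.96 ± 0.18 (3.82-fold likewise). miR-362-5p, not well above background on any Media array, rose at least 2.68-fold (adjusted p = 4.48e-10). The other 2 strands did not pass, miR-532-3p with 0.53 (adjusted p = 0.0658) and miR-188-5p with -0.17 (0.438).

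The miR-378 family rose by about the same amount in 3 members. miR-378b and miR-378d share much of their sequence, and whether the probes separate the 3 members was not tested. miR-378a-3p, which has been described in IL-4-activated mouse macrophages as acting on Akt signalling, was at 0.336, 0.352, 0.25 and 0.334 on Th2_IL33 arrays and at 0.166, 0.180, 0.117 and 0.168 on Media arrays. Experiment 3 was lowest in both groups and the groups did not overlap. The log2 difference was 1.02 ± 0.16 (2.03-fold, adjusted p = 0.000336), with values by experiment of 1.02, 0.97, 1.10 and 0.99. miR-378d rose by 1.13 (adjusted p = 0.000168) and miR-378b by 1.07 (0.000651). The other arm, miR-378a-5p, differed by 2.01 ± 0.93 and did not pass (adjusted p = 0.173). It lay at the floor on Media 1 and 3 and at 0.0528 on Th2_IL33 2, against 0.630 to 0.680 on the other Th2_IL33 arrays.

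miR-342-3p, encoded within Evl, was at 0.656, 0.634, 0.536 and 0.395 on Th2_IL33 arrays and at 0.299, 0.244, 0.152 and 0.184 on Media arrays, without overlap (2.56-fold, log2 difference 1.36 ± 0.23, adjusted p = 0.000561). miR-223-3p, a miRNA of myeloid differentiation that restrains granulocyte activation, was at 0.980, 1.09, 0.836 and 0.600 on Th2_IL33 arrays and at 0.610, 0.424, 0.341 and 0.403 on Media arrays. It was the 1 call whose arrays overlapped, since Th2_IL33 4 lay just below Media 1 (1.97-fold, 0.98 ± 0.24, adjusted p = 0.00988). The myeloid miRNAs miR-142a-3p (-0.13) and miR-142a-5p (-0.18) did not pass. Of 6 tested myeloid miRNAs 2 rose and 0 fell (median 0.42), where 9.52% of all tested miRNAs rose (median 0.13).

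Members of the miR-99a, let-7c and miR-125b clusters rose by smaller amounts on high signals. miR-99a-5p, a repressor of the growth kinase mTOR, was at 4.42, 4.86, 3.90 and 4.56 on Th2_IL33 arrays and at 2.63, 2.15, 1.39 and 2.00 on Media arrays (2.22-fold, log2 difference 1.15 ± 0.16, adjusted p = 6.26e-05). let-7c-5p, described as favouring alternative activation in mouse macrophages and encoded at 2 loci, 1 of them on chromosome 15 and 1 within a span of 754 bases with miR-99a on chromosome 16, was at 7.49, 8, 6.63 and 7.79 on Th2_IL33 arrays and at 5.96, 4.64, 3.23 and 4.79 on Media arrays (1.64-fold, 0.71 ± 0.15, adjusted p = 0.00323). Neither pair of groups overlapped, and Media 3 was lowest in both. miR-100-5p rose by 0.90 (adjusted p = 0.00239) and miR-125b-5p by 0.74 (0.00364). Since miR-99a-5p and miR-100-5p differ at 1 position, their probes may not separate them, which was not tested. Of 10 tested let-7 miRNAs let-7c-5p was the 1 that passed (median 0.19), near the 10.4% of all tested miRNAs that did (median 0.13).

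miR-22-3p and the p53 target miR-34a-5p rose as well. miR-22-3p was at 1.93, 2.15, 1.57 and 2.24 on Th2_IL33 arrays and at 1.13, 0.917, 0.731 and 1.31 on Media arrays (1.96-fold, 0.97 ± 0.16, adjusted p = 0.00051). miR-34a-5p was at 1.43, 1.60, 1.44 and 1.55 on Th2_IL33 arrays and at 1.22, 0.649, 0.638 and 0.973 on Media arrays (1.79-fold, 0.84 ± 0.17, adjusted p = 0.00239). Neither overlapped, and the gap was narrow for miR-34a-5p in experiment 1 (log2 difference 0.22, against 0.68 to 1.30 in the other experiments). The hypoxia miRNA miR-210-3p differed by -0.28 and did not pass (adjusted p = 0.482), the 1 of 3 tested stress miRNAs that did not. Of all tested miRNAs 9.52% rose.

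The miRNAs that fell belong to the miR-183 cluster, best known from sensory organs and as repressors of FOXO factors. miR-96-5p was at 0.0385, 0.0369, 0.0422 and 0.0746 on Th2_IL33 arrays, none of them well above background, and at 0.115, 0.101, 0.0755 and 0.177 on Media arrays, 3 of which were. Experiment 4 was highest in both groups, and the highest Th2_IL33 array lay just under the lowest Media array. It fell by 1.28 ± 0.31 on the log2 scale (adjusted p = 0.00941), at least 2.14-fold. miR-182-5p was at the floor on Th2_IL33 arrays 1 to 3 and at 0.0458 on the fourth, none well above background, and at 0.0638, 0.0838, 0.0484 and 0.131 on Media arrays, all well above it. It was at least 1.69-fold lower (log2 difference -1.02 ± 0.25, adjusted p = 0.00946), a call that ended with slide as a block (-0.86, adjusted p = 0.0915). miR-183-5p was at the floor on all 4 Th2_IL33 arrays and well above background on 1 of 4 Media arrays (-0.42 ± 0.14, adjusted p = 0.0728). With the experiment number as a block its adjusted p was 0.049. With normexp background correction neither miR-96-5p (-0.26, adjusted p = 0.0800) nor miR-182-5p (-0.22, 0.142) passed.

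**Figure D2:**
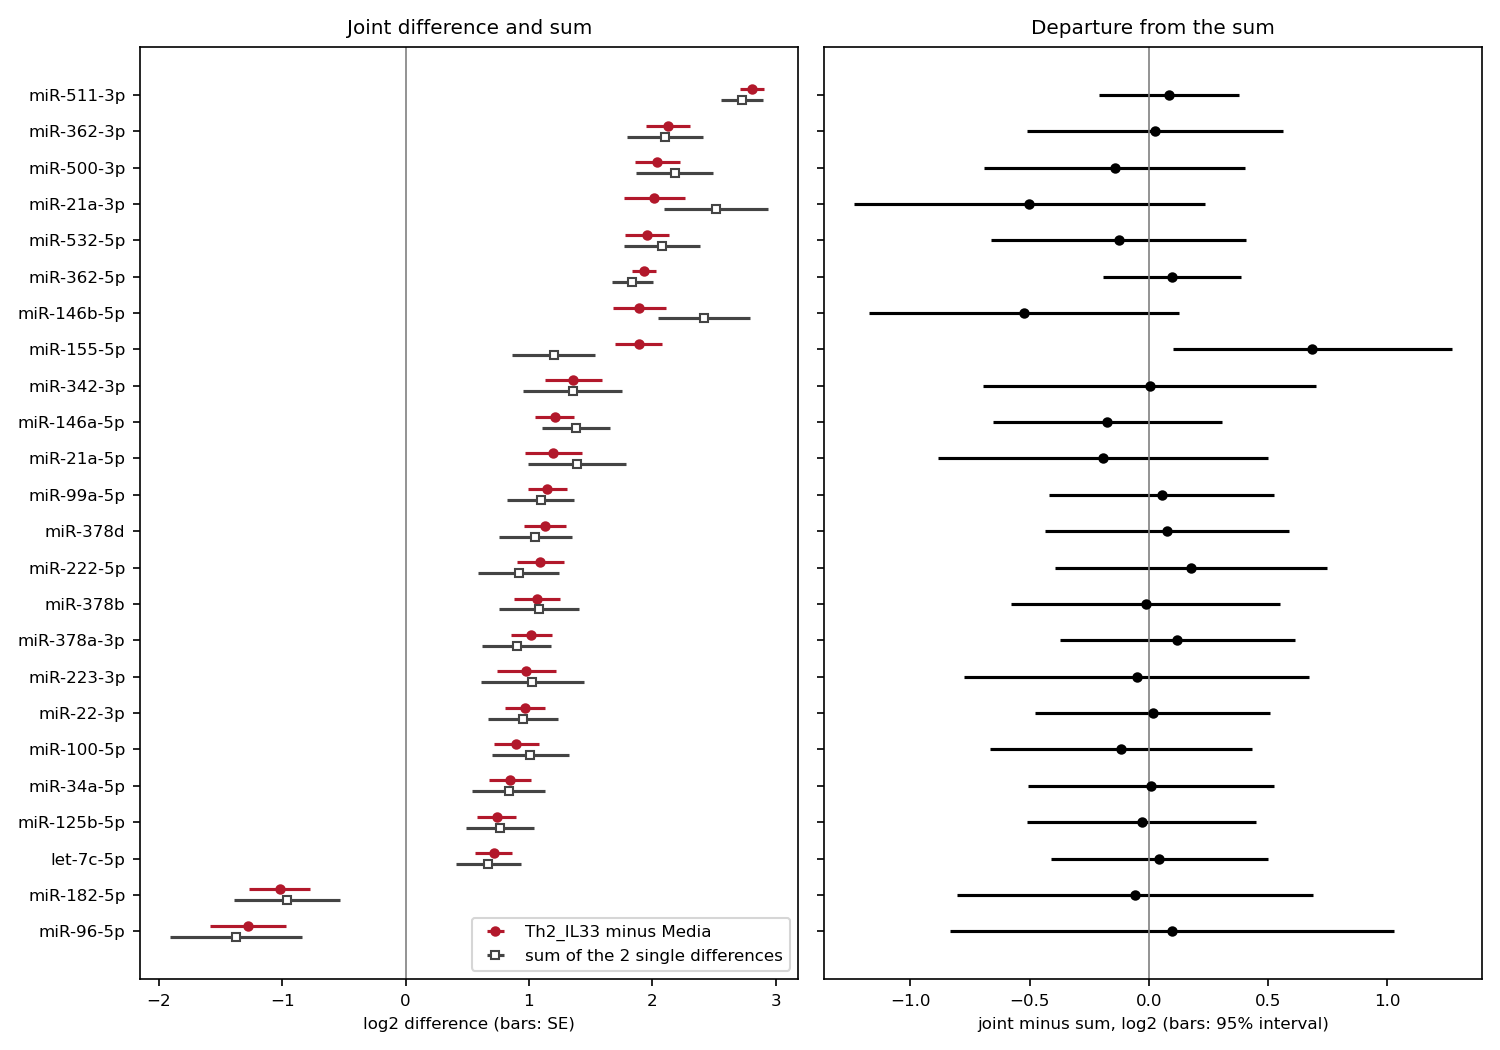
Left, the joint log2 difference (Th2_IL33 minus Media) and the sum of the 2 single differences for the 24 miRNAs that passed, with SE. Right, the departure of the joint difference from that sum, with 95% intervals, which exclude 0 for miR-155-5p (0.10 to 1.27) and include 0 for the other 23.

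For most of the 24 miRNAs that passed, the joint difference lay close to what the single differences add up to. On the log2 scale the sum of the Th2 difference and the IL-33 difference, each against Media, is what 2 independent multiplicative changes would give, and the interaction of the model tests the departure of the joint difference from it. Since joint and sum share the Media arrays, their likeness is no evidence by itself, and only that departure is tested. Of 231 departures 0 passed the threshold (0% of those tested, smallest limma adjusted p 0.995) and 5 had an unadjusted p under 0.05 (2.16%). With array weights 1 passed, miR-155-5p.

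Among the 24 miRNAs changed by both stimuli, the median size of the departure was 0.0909 log2 units, against 0.0902 over all tested miRNAs. It was under 0.25 for 21 and over 0.5 for 3, with 13 above 0 and 11 below. The 95% interval reached 0.290 to 0.932 to either side, with a median of 0.543 over all tested miRNAs. Departures smaller than that could not be told from 0 with 4 arrays a group, and the intervals do not show that the stimuli add exactly.

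For miR-511-3p and miR-362-5p the groups without Th2 cytokines were at or near the floor and not well above background on any array, so that the narrow intervals of their departures (-0.21 to 0.38 and -0.19 to 0.39) rest on floored values and give no measured precision. For miR-500-3p (2.04 with a sum of 2.18), miR-362-3p (2.13 with 2.10) and miR-532-5p (1.96 with 2.08) the departures were -0.14, 0.03 and -0.13. miR-342-3p (1.36 with 1.36), miR-22-3p (0.97 with 0.95), miR-34a-5p (0.84 with 0.84), miR-99a-5p (1.15 with 1.10) and let-7c-5p (0.71 with 0.67) departed by 0.05 or less after rounding. Their IL-33 differences were 0.15, 0.27, 0.05, 0.01 and 0.02 in that order, so most of each sum was the Th2 difference. For miR-96-5p the joint -1.28 stood against a sum of -1.38 and an interval of the departure of -0.84 to 1.03, the widest of the 24.

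Which stimulus contributed differed between the members. The Th2 difference was the larger of the 2 single differences for 18 of the 22 miRNAs that rose, and the IL-33 difference for 4, namely miR-155-5p, miR-21a-3p, miR-146a-5p and miR-222-5p. For 15 of the 22 the IL-33 difference was within 0.25 of 0. Both single differences reached 0.25 for 6 of them, among them miR-21a-5p with a joint 1.20 against a sum of 1.39 and miR-22-3p.

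The 3 departures over 0.5 in size were those of NF-kB-responsive miRNAs, and they did not point the same way. For miR-155-5p the joint difference of 1.89 stood above the sum of 1.20 ± 0.34 (Th2 0.03, IL-33 1.17), a departure of 0.69 (95% interval 0.10 to 1.27, unadjusted p = 0.0246, adjusted p = 0.995). The departure was above 0 in 4 of 4 experiments, at 1.23, 0.84, 0.11 and 0.57. These are the same arrays on which it stood out, so the count is no separate support. Over 28 alternatives the departure ran from 0.29 with normexp background correction to 1.25 with array weights (limma adjusted p = 0.0158), the 1 setting in which it passed. The Th2 and Media levels behind it are at or near the floor, so the single Th2 difference of 0.03 does not show what happened below background. Without the log, on relative signal itself, the joint difference was 0.110 and the sum 0.0504, with a departure of 0.0596 ± 0.0385 (SD over 4 experiments, above 0 in 4).

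For miR-146b-5p and miR-21a-3p the joint difference lay below the sum. miR-146b-5p departed by -0.52 (interval -1.17 to 0.13) from a sum of 2.42, and miR-21a-3p by -0.50 (-1.24 to 0.24) from a sum of 2.52. Both rest on Media arrays of which 2 were not well above background. With normexp background correction both departures turned positive (0.065 and 0.045), and on the scale without the log miR-146b-5p had a joint difference equal to its sum (0.133 each). miR-146a-5p, well above background on all 16 arrays, departed by -0.17 (-0.65 to 0.31).

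The departures by experiment moved as a block. In experiment 3 they were below 0 for 23 of the 24 miRNAs (median -0.75), while they were above 0 for 20 in experiment 1 (median 0.32), 15 in experiment 2 (0.089) and 23 in experiment 4 (0.31). Over all 231 miRNAs experiment 3 likewise had 178 departures below 0 (median -0.55). Each experiment contributes 1 array of each group, and Media 3, the Media array of experiment 3, is the array with the lowest correlation with its group. The part of that array in the departures was not tested beyond leaving it out, which gave 0 passing departures and a value of 0.75 for miR-155-5p.

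**Figure D3:**
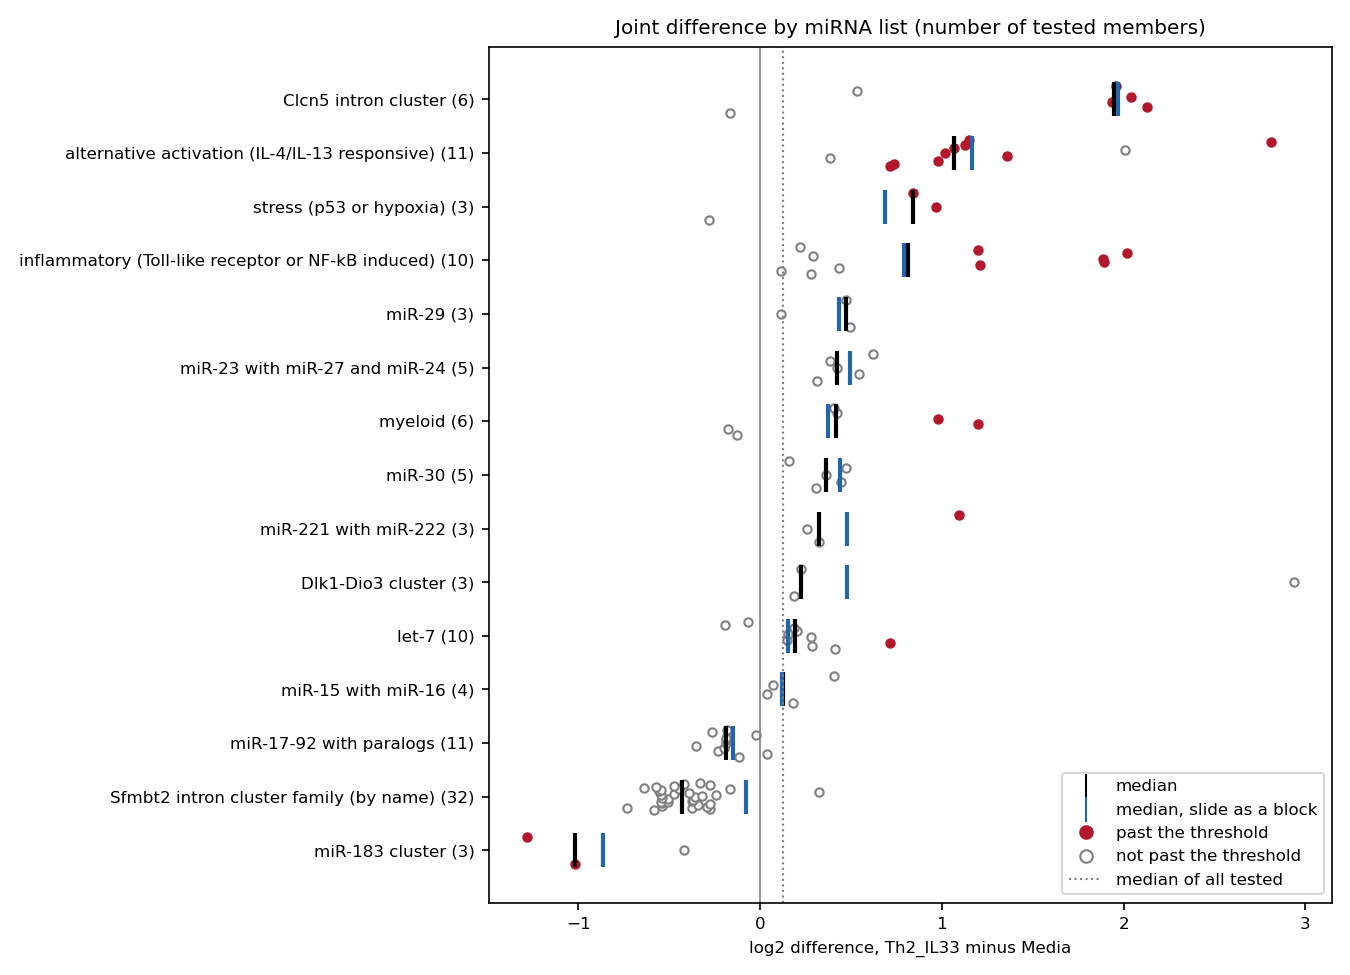
Joint log2 difference (Th2_IL33 minus Media) of the tested members of 15 miRNA lists, filled where past the threshold, with the list median in black, the median with slide as a block in blue and the median of all tested miRNAs dotted. The Clcn5 cluster (median 1.95) and the miR-183 cluster (median -1.02) lie at opposite ends, and the Sfmbt2 family median of -0.43 moves to -0.076 with slide as a block.

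The other lists held few or no calls, read against the 10.4% of all tested miRNAs that passed. In the miR-17-92 clusters, which serve proliferation, 0 of 11 passed and 10 of 11 differences were negative (median -0.19). The largest were those of miR-19a-3p (-0.35, adjusted p = 0.147) and miR-92a-3p (-0.26, 0.221), and that of miR-17-5p (-0.23) turned to 0.014 with slide as a block. In the miR-23, miR-27 and miR-24 clusters 0 of 5 passed and all 5 differences were positive (median 0.42), led by miR-27b-3p (0.62, adjusted p = 0.0634) and miR-23b-3p (0.54, 0.0658). Those 2 passed with the experiment number as a block (adjusted p 0.0219 and 0.0327). The miR-30 list (0 of 5, median 0.36), the miR-29 list (0 of 3, 0.47) and the miR-15 with miR-16 list (0 of 4, 0.13) had no calls. The Dlk1-Dio3 cluster had 0 of 3.

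The largest list was the Sfmbt2 family, taken by name (miR-297, miR-466, miR-467 and miR-669), of which many members lie in a rodent-specific intron cluster. Of 32 tested members 31 had a negative joint difference (median -0.43) and 0 passed. With the experiment number as a block 8 passed as lower, where 5.63% of all tested miRNAs did, and their differences in that fit ran from -0.35 for miR-467c-5p to -0.73 for miR-466f-5p. With slide added to that block 5 of the 8 still passed, without miR-467c-5p (limma adjusted p = 0.118), miR-466f-5p (0.0896) and miR-669l-5p (0.0677). Over the 32, the median of the sums of single differences was -0.029. Their median departure from the sum was -0.36, against 0.016 over all tested miRNAs. These medians do not describe the 8 members above. The sums of those 8 ran from -0.92 (miR-466f-5p) to -0.45 (miR-467c-5p). Their departures ran from 0.045 (miR-466c-5p) to 0.21 (miR-466j). With slide as a block the median joint difference of the 32 was -0.076, while the 8 ran from -0.57 (miR-466j) to -0.26 (miR-467c-5p). The part of the slides in the shift was not tested further. These miRNAs share long stretches of sequence, and their probes may not separate them.

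**Figure D4:**
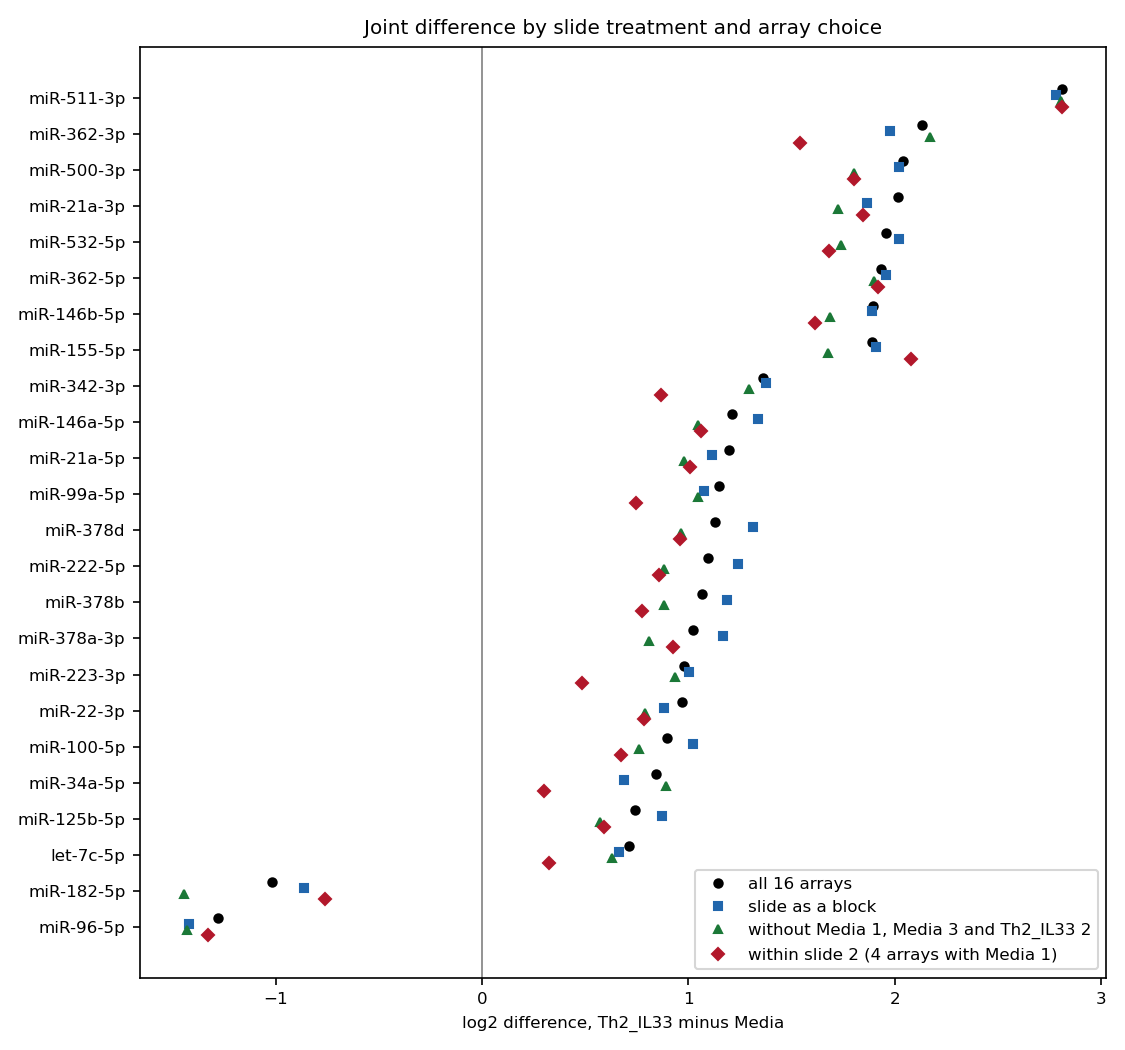
Joint log2 difference (Th2_IL33 minus Media) of the 24 called miRNAs with all 16 arrays (black circles), with slide as a block (blue squares), without Media 1, Media 3 and Th2_IL33 2 (green triangles), and within slide 2, where 4 Th2_IL33 arrays meet Media 1 (red diamonds). All 24 keep their direction in each, and miR-34a-5p, miR-223-3p and let-7c-5p are smallest within slide 2.

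Within slide 2 the 4 Th2_IL33 arrays could be set against Media 1 alone, with the spread taken from the Th2_IL33 and Media_IL33 arrays. No spread among Media arrays enters, so a pass there rests on an SE without it. All 24 differences kept their direction there, and 10 passed (11 of 231 in all). The 10 were miR-511-3p (2.81), miR-155-5p (2.08), miR-362-5p (1.92), miR-21a-3p (1.84), miR-500-3p (1.80), miR-532-5p (1.68), miR-146b-5p (1.62), miR-362-3p (1.54), miR-146a-5p (1.06) and miR-378d (0.96). Differences smaller by over 1.5 times than with all arrays were those of miR-34a-5p (0.30), let-7c-5p (0.32), miR-223-3p (0.49), miR-99a-5p (0.75) and miR-342-3p (0.87), none past the threshold there. In the model with slide as a block 23 of 24 calls remained, without miR-182-5p, and with blocks for both slide and experiment all 24 did, among 49 (42 higher and 7 lower).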

How the data were processed

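Total RNA of RAW264.7 cells was hybridised to single-colour Agilent mouse miRNA arrays, each sample to its own. Per the file headers, Feature Extraction 10.7.3.1 produced the deposited intensity of each spot, corrected for background and spatial trend and not normalized between arrays. A second deposited file holds quantile normalized probe intensities for all arrays, made with Partek 6.6 and RMA per the submitters' processing notes, and served as an alternative. Control and outlier spots (2040 to 3929 of 49880 per array) were left out, spots were averaged per probe, probes (3105) were summed per miRNA, and the sums of each array were scaled to the 75th percentile of the 178 miRNAs that every array detected (427 to 654 intensity units). Values under 0.0353 were set to that floor and log2 transformed, and 0 spots were saturated.

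limma fitted all 16 arrays in 1 linear model of the 4 groups (limma 3.58.1, R 4.3.3, data.table version 1.17.8, 12 residual degrees of freedom), with Benjamini-Hochberg adjustment over 231 miRNAs. The procedure was tested on simulated data with independent normal noise. These had no slide or experiment effects and no floor, so the simulation does not cover those features of the arrays. Errors are SE of the model unless called SD. A miRNA was well above background on an array if the scanner software so marked 0.5 or more of the spots of any of its probes. "At least" folds are relative to the dimmest signal that any miRNA well above background had on that array, or the measured signal where higher, and folds with dim arrays at the bound treat only those arrays so.

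The labels' descriptions give same-numbered arrays of all groups the same experiment letter, which is where the pairing comes from. Across groups, deviations from the group mean correlated with a median r of 0.112 for same-numbered arrays (24 pairs) and -0.0482 for others (72 pairs), and with -0.180 (4 pairs) and 0.102 (12 pairs) between Th2_IL33 and Media. The experiments are separate cultures of 1 line.

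Named miRNAs are, past the threshold, up to 15 increases and 15 decreases in order of size, the 10 with the smallest unadjusted p of the interaction, miR-155-5p, miR-146a-5p, miR-146b-5p, miR-21a-5p, miR-21a-3p, miR-222-5p, miR-511-3p, miR-378a-3p and miR-223-3p, and up to 4 members of each list. Other members, such as miR-100-5p and miR-125b-5p, were named after their values were seen. The groups, lists and rules were chosen with earlier results of these data known. Alternatives covered background correction, scaling, filter, floor, probe summary, the authors' own values, array weights, slide and experiment blocks, the 8 arrays alone and each array left out.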

Additional observations from a re-analysis of the deposited data

Results flagged for a closer look

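Of 128 groups of 4 arrays examined for the named miRNAs in Th2_IL33 and Media, 13 held 1 array whose log2 relative signal lay far from the other 3 by Dixon's criterion, which chance does in about 1 of 20 groups. Th2_IL33 2 was that array for 6 miRNAs. It was low for miR-376c-3p (-0.281, others 1.98 to 2.40), miR-378a-5p (-4.24, others -0.67 to -0.56), miR-3063-3p (-4.82, at the floor, others -1.02 to -0.34), miR-30b-3p (-4.11, others -1.36 to -0.94) and miR-669b-5p (-4.67, others -2.28 to -2.16), and high for miR-362-3p (-2.13, others -2.40 to -2.37). Th2_IL33 3 was low for miR-378a-3p (-1.997, others -1.58 to -1.51) and miR-15b-5p (0.711, others 1.01 to 1.03). Th2_IL33 4 was high for miR-182-5p (-4.45), with the other arrays at the floor.

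Among Media arrays, Media 4 was high for miR-155-5p (-4.10, others -4.82 to -4.78) and for miR-30b-5p (-2.02, others -2.80 to -2.71). Media 3 was low for miR-378d (-3.93, others -3.44 to -3.36). Media 1 was low for the muscle miRNA miR-206-3p (-4.03, others -3.67 to -3.65), which was not well above background on any array.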

How the results depend on the processing

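With slide as a block, each of the 24 calls kept its direction, as under the other settings run, and miR-511-3p, miR-155-5p, miR-146a-5p, miR-146b-5p, miR-21a-3p, miR-362-3p, miR-362-5p, miR-500-3p, miR-532-5p and miR-378d passed in every one that tested them. The joint count of 24 became 38 with quantile normalization, 42 with the replicate block, 49 with slide and replicate block and 11 within slide 2, and 24 to 40 when single arrays were left out. The interaction count of 0 became 1 with array weights (miR-155-5p) and stayed at 0 when single arrays were left out; the replicate block left it at 0 and ended none of the 24 joint calls. Calls ended for miR-96-5p and miR-182-5p with normexp, for let-7c-5p, miR-125b-5p, miR-223-3p and miR-34a-5p with scaling over all miRNAs, for let-7c-5p, miR-222-5p and miR-34a-5p in the authors' table, and for let-7c-5p, miR-182-5p and miR-34a-5p with the 8 arrays alone. Normexp shrank dim miRNAs most (miR-155-5p to 0.43, miR-511-3p to 0.82), and 8 of the 24 calls are not tested if detection on all 16 arrays is required. The causes were not tested. Joint differences that changed sign were all of miRNAs that had not passed. miR-15b-5p gave -0.0233 with normexp, -0.0514 with the brightest probe, -0.143 in the authors' table, -0.0719 with array weights, -0.115 without the 3 arrays that stand apart, -0.293 within slide 2 and -0.159 without Media 3 (to 0.148 with other arrays left out). miR-16-5p gave -0.00681 with quantile normalization, -0.0351 with the brightest probe, -0.145 in the authors' table, -0.111 with array weights, -0.0693 without the 3 arrays, -0.0943 within slide 2 and -0.0411 without Media 3 (to 0.187). miR-669h-3p gave 0.169 with array weights, 0.157 without the 3 arrays, 1.11 within slide 2 and 0.191 without Media 3 (from -1.22). miR-29b-3p gave -0.00143 with slide as a block, -0.453 within slide 2, -0.0474 with slide and replicate block and -0.00783 without Th2_IL33 3 (to 0.305), and miR-17-5p 0.0142 and 0.126 in the 2 slide models. Without the 3 arrays miR-222-3p gave -0.0374, miR-341-3p -0.258 (-0.0835 without Media 3, to 0.456) and miR-494-3p -0.0803. Within slide 2 let-7b-5p gave -0.0633, miR-15a-5p -0.329, miR-30a-5p -0.0697 and miR-322-5p -0.105. Interaction estimates that changed sign were those of miR-146b-5p (0.0649 with normexp and 6.72e-05 on the linear scale, an alternative chosen after seeing the data), miR-21a-3p (0.0454 with normexp) and miR-5615-5p (0.0664 without the 3 arrays).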

Other observations

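With the experiment number as a block, 18 further miRNAs passed in the joint comparison, 7 higher and 11 lower. Besides the miR-27b-3p and miR-23b-3p described above, the higher ones were miR-1198-5p (log2 difference 0.65), miR-709 (0.51), miR-30d-5p (0.47), miR-652-5p (0.45) and miR-1906 (0.41). The lower ones were 8 Sfmbt2 family members, miR-183-5p, the muscle miRNA miR-206-3p (-0.54) and miR-1196-5p_v19.0 (-0.997). These were chosen for naming after their values were seen. With slide added to that block the adjusted p was over 0.05 for miR-1198-5p (0.133), miR-652-5p (0.0768), miR-183-5p (0.156), miR-206-3p (0.132), miR-1196-5p_v19.0 (0.0677) and the Sfmbt2 family members miR-467c-5p (0.118), miR-466f-5p (0.0896) and miR-669l-5p (0.0677).

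The lowest interaction estimates did not belong to the miRNAs changed by both stimuli. miR-376c-3p, of the imprinted Dlk1-Dio3 cluster, had relative signals of 5.28, 0.823, 3.94 and 4.69 on Th2_IL33 arrays, 3.74, 4.87, 4.45 and 3.92 on Th2 arrays, 4.43, 5.05, 4.32 and 3.89 on Media_IL33 arrays, and 0.0690, 5.35, 0.0353 and 1.80 on Media arrays. It lay within 3.74 to 5.35 on 12 arrays and dropped on Media 1, 3 and 4 and Th2_IL33 2. Its departure from the sum was -3.99 (95% interval -7.61 to -0.36, limma adjusted p = 0.995), and its joint difference of 2.94 ± 1.20 (adjusted p = 0.123) was 0.57 without Media 1, Media 3 and Th2_IL33 2.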
